A study of Mus musculus with 20 samples.

Results

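The sites described here are C-to-T positions at which neither untreated library of the tissue labelled E10.5 embryo, FreshFrozen, held an edited read. They were chosen by measured values: a reference C on the transcript strand, 10 or more covering reads in each of the 6 libraries of that table, 40 or more covering reads summed over both untreated libraries, and 0 edited reads in both. The rule took 40471 sites of 150516 unique sites in the table, of which 83456 were C-to-T sites and 58994 also reached 10 covering reads in all libraries. It took 68.6% of the latter and left out 14967 with edited reads in an untreated library and 3556 under the summed untreated depth. That the untreated libraries were at 0 is the rule itself and is no result. The rule did not use the IgG and anti-G3BP1 libraries beyond their depth, and how a site came to be listed was not stated.

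MAPIT-seq marks RNA near a protein in tissue sections. A primary antibody, here rabbit IgG as the control or anti-G3BP1, and a guinea pig anti-rabbit secondary antibody bring in rAPOBEC1-pAG-hADAR2, in which protein A/G joins the rat cytidine deaminase APOBEC1 to human ADAR2. All mice were wild-type C57BL/6J, and the antibody libraries were labelled with 0.2% FA as fixation while the untreated libraries were labelled as without fixation, antibodies and fusion protein. Fixation and the antibody steps therefore cannot be told apart when untreated libraries are compared with the others. The series holds 20 libraries in 10 groups of 2: IgG, anti-G3BP1 and untreated for the FreshFrozen and for the Fixed E10.5 embryo, and IgG and anti-G3BP1 for E12.5 and E16.5 brain. Whether replicates came from separate animals is not labelled, and the p-values here reflect the variation among these libraries alone.

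G3BP1 is a cytoplasmic RNA-binding protein that nucleates stress granules together with G3BP2 and Caprin1. APOBEC1 turns cytidine into uridine, which is read as T. In the intestine it edits the apolipoprotein B mRNA and 3' UTRs of other mRNAs, it favours a C that follows an A or U in AU-rich sequence, and its best-known substrate carries a so-called mooring sequence just downstream. A C-to-T difference can also be a sequencing or amplification error or an allele, and none of these depends on the fusion protein.

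The libraries go against their stage label. Of 5 markers of later neurons, Gria2, Snap25, Syt1 and Rbfox3 had their highest median of the 4 tables here, and Camk2b was second to E16.5 brain. Gria2, an AMPA receptor subunit, ran from 248.5 to 420.2 TPM over the 6 libraries, against 0.275 to 1.72 in the Fixed embryo and 71.4 to 97.6 in E16.5 brain. Snap25, a synaptic vesicle fusion protein, ran from 97.5 to 132.9 against 4.38 to 9.61 in the Fixed embryo and 82.9 to 113.0 in E16.5 brain. Markers of the body of an embryo were near 0: Hoxb9 of the trunk reached 0.445 TPM against at least 438.4 in the Fixed embryo, the heart genes Myl7, Myh6 and Tnnt2 reached 10.7, 1.02 and 0.443 against at least 1808, 126.2 and 126.4, and Afp of the fetal liver reached 1.02 against at least 195.3. The globin Hbb-y of the early embryo stood at a median of 102.3 TPM against 4439. Every statement below therefore concerns the libraries labelled E10.5 embryo, FreshFrozen, and not a whole embryo of that stage. In bulk libraries such as these, fewer cells of a type and less RNA per cell cannot be told apart.

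The following windows show what was edited. Each gives 30 bases of the transcript, 12 before and 17 after the site, 5' to 3', from the GENCODE M21 transcripts (GRCm38), with the edited C in capitals. The first 3 were edited in both anti-G3BP1 libraries with 0 to 2 edited reads with IgG, the next 5 were edited in all 4 antibody libraries, and the last was edited with IgG alone.
Nedd4 3' UTR, chr9:72749705-72749734, + strand: taagctatttgaCattgtttttaaattttt
Smarce1 3' UTR, chr11:99209098-99209127, - strand: aatagatttttaCtgaatagtggtatatat
Igsf3 3' UTR, chr3:101462827-101462856, + strand: aaattatgttgaCaatacgctgtttacatt
Mysm1 3' UTR, chr4:94942787-94942816, - strand: agagtcagggagCtctccagtgctcaaggt
Pank2 3' UTR, chr2:131298660-131298689, + strand: gtacaaacacgtCtatgaaacctgaggctc
Leng8 3' UTR, chr7:4147791-4147820, + strand: ttttttttttttCtttccctcctgcctctt
Selenok 3' UTR, chr14:29974567-29974596, + strand: atggtgtatgtcCaaacaaggattgctctg
Sgta 3' UTR, chr10:81044214-81044243, - strand: gagatcacaggaCagctgaacccttggggg
Adam23 3' UTR, chr1:63595327-63595356, + strand: agtgcaatcgtaCtgtacgaaatgggtcag
The first 3 all follow an A in AT-rich surroundings, whereas of the 5 edited in every antibody library only that of Sgta follows an A. The IgG site of Adam23 follows an A as well. Among all 75 sites edited in the 4 antibody libraries for which the context could be read, 29.3% followed an A.

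In Nedd4, which encodes a HECT-type E3 ubiquitin ligase, the site at position 72749717 of chromosome 9 had 1 of 459 reads edited in IgG replicate 1 and 0 of 375 in replicate 2. With anti-G3BP1 it had 12 of 385 (3.12%, 95% Wilson interval 1.79 to 5.37) and 31 of 612 (5.07%, 3.59 to 7.10). Both anti-G3BP1 libraries lay above both IgG libraries, and 0 of 272 and 0 of 286 untreated reads were edited, which allows a share of up to 0.538% over both. This was the only site of the rule that passed the per-site test (log2 odds change 4.66 ± 1.61 SE, adjusted p = 0.0138, quasi-binomial model, Benjamini-Hochberg over 104878 sites, of which 28 or 0.0267% were called higher). In E16.5 brain, in libraries the rule did not use, 1 of 260 and 0 of 220 IgG reads and 4 of 196 and 6 of 295 anti-G3BP1 reads were edited. In the Fixed embryo the order was not seen, with 2 of 469 and 0 of 296 IgG reads against 0 of 265 and 0 of 175. The call did not survive leaving out either replicate of either antibody.

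The site of Smarce1, a subunit of the BAF chromatin remodelling complex, had no edited read among 158 and 149 IgG reads, against 10 of 169 and 6 of 254 with anti-G3BP1. The groups did not overlap, but the site missed the threshold (adjusted p = 0.288, quasi-binomial model, Benjamini-Hochberg). The site of Igsf3, an immunoglobulin superfamily membrane protein, had 2 of 292 and 0 of 322 edited reads with IgG against 9 of 338 and 6 of 354 (adjusted p = 0.72, same test). Both carry an AT-rich 3' UTR context like that of Nedd4. In E16.5 brain the Smarce1 site had 2 of 165 and 1 of 143 IgG reads edited and 3 of 100 and 5 of 160 with anti-G3BP1, again without overlap, and in E12.5 brain 0 of 18 and 2 of 59 against 4 of 43 and 2 of 48. In the Fixed embryo, where it was covered most, the Smarce1 site had 0 of 208 and 0 of 190 IgG reads edited against 0 of 165 and 2 of 135, not apart. The Igsf3 site had no edited read among 11, 47, 33 and 53 reads of the 4 E12.5 brain libraries.

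Among the sites with the highest mean share over the 4 antibody libraries, that in Timp3, an inhibitor of metalloproteinases, had both anti-G3BP1 libraries above both IgG libraries, and those in Mysm1 and Pank2 had both below. At the head stood a synonymous position in Eef1a2, the neuronal and muscle form of elongation factor 1 alpha, at position 181152859 of chromosome 2, with 7 of 20 and 1 of 15 reads edited with IgG and 6 of 19 and 2 of 19 with anti-G3BP1. In the Fixed embryo the change there was carried by 0 of 6 and 4 of 6 IgG reads, 13 of 13 and 19 of 19 anti-G3BP1 reads and 0 of 2 reads of untreated replicate 1, and in E12.5 brain by 1 of 1 and 6 of 12 IgG reads and 1 of 1 and 20 of 24 anti-G3BP1 reads. In Mysm1, a histone H2A deubiquitinase, 4 of 48 and 11 of 63 IgG reads and 3 of 46 and 6 of 94 anti-G3BP1 reads were edited. In Pank2, a mitochondrial pantothenate kinase, the counts were 7 of 59 and 5 of 48 against 2 of 49 and 8 of 82. None of these passed the test. Among sites with most edited anti-G3BP1 reads, Sgta, Selenok and Leng8 had overlapping groups. Sgta, a co-chaperone of tail-anchored proteins, had 7 of 182 and 6 of 197 IgG reads and 3 of 281 and 17 of 355 anti-G3BP1 reads edited. Selenok, a selenoprotein of the endoplasmic reticulum, had 3 of 118 and 8 of 150 against 5 of 165 and 17 of 228. Leng8 had 15 of 117 and 6 of 116 against 13 of 185 and 4 of 298. In Adam23, a catalytically inactive membrane disintegrin, 6 of 15 reads of IgG replicate 1 were edited and 0 of 13, 0 of 16 and 0 of 36 in the other 3 libraries. Of the 10 sites with the highest mean share, all rest on fewer than 100 reads a library. The site in Ftl1-ps1, a pseudogene of a ferritin light chain, may share reads with its parent gene and is uncertain. The Eef1a2 site, changed in all anti-G3BP1 reads of the Fixed embryo, is uncertain as well, and the cause was not tested.

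The covering reads at the sites summed to 2431611 and 2452853 in the IgG libraries, 2760565 and 4052020 with anti-G3BP1 and 2905492 and 2633773 in the untreated libraries. The mean depth per site was 60.1 and 60.6, 68.2 and 100.1, and 71.8 and 65.1 reads in the same order, so that anti-G3BP1 replicate 2 was the deepest. The summed untreated depth had a median of 113 reads and reached 2264, and a count of 0 then allows an untreated share of up to 2.65% at the median and 7.5% at 40 reads (3 counts of the total; such limits and all intervals here cover counting error only). The summed anti-G3BP1 share was above its own site's limit at 5620 sites (13.9%), and the IgG share at 4086 (10.1%). For the remaining sites the depth cannot separate the antibody share from the untreated one. Just inside the depth threshold, at 40 to 44 summed untreated reads, 1471 sites had 1.06% and 1.16% of reads edited with IgG and 1.94% and 1.90% with anti-G3BP1. Just outside, at 35 to 39, 1372 sites had 1.22% and 1.25% against 1.95% and 1.98%.

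Over all 40471 sites, 0.600% and 0.598% of covering reads were edited in the IgG libraries, against 0.989% and 1.0% in the anti-G3BP1 libraries. The libraries of an antibody lay close together and the groups did not overlap. The ratio was 1.66-fold (log2 0.73), and the exact two-sided permutation test gave p = 0.333, the smallest value that 2 against 2 libraries allow. At the 32737 A-to-G sites that the same rule took, the shares were 0.692% and 0.767% against 1.80% and 1.86%, a ratio of 2.51-fold. Over the 4 tables the gain at the C-to-T sites was smaller than at the A-to-G sites by 0.70 on the log2 scale (exact permutation within tables, p = 0.00154, the smallest value 1296 arrangements allow; adjusted over 6 tests, 0.00926). The direction held in each of the 4 tables.

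The same rule can be turned on the antibody groups. With IgG at 0 it took 35459 C-to-T sites, at which 0.405% and 0.376% of untreated reads and 1.02% and 1.05% of anti-G3BP1 reads were edited. With anti-G3BP1 at 0 it took 21460 sites, with 0.678% and 0.633% of untreated reads and 1.09% and 1.06% of IgG reads edited. Each group that the rule did not set to 0 held edited reads, the untreated libraries included. Of the 40471 sites only 489 had no edited read in any library. Edited reads in the groups left free were thus largely fixed by what was listed. Whether the sites depend on treatment therefore cannot be told from these counts, and the sites are called by their rule here.

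A second count did not use the rule. Of the 58994 C-to-T sites with enough reads, those edited in exactly 1 of the 6 libraries numbered 1616 and 1605 per 1000000 covering reads for the IgG libraries, 2624 and 2795 for anti-G3BP1, and 1112 and 991 for the untreated libraries. The order was anti-G3BP1, IgG, untreated, with no overlap between groups. After an A the numbers per 1000000 reads covering such sites were 514 and 463 in the untreated, 1167 and 1183 in the IgG and 3437 and 3732 in the anti-G3BP1 libraries. For sites after a G the numbers were 1599 and 1475, 1768 and 1913, and 1974 and 1879. Among listed sites the libraries thus differed several-fold after an A and little after a G. Of the 22100 sites after an A, 4826 and 7760 were edited in 1 anti-G3BP1 library only. Such sites add covering reads to every library and cannot count for another. The numbers therefore describe what was listed and are not independent rates of the libraries.

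**Figure D1:**
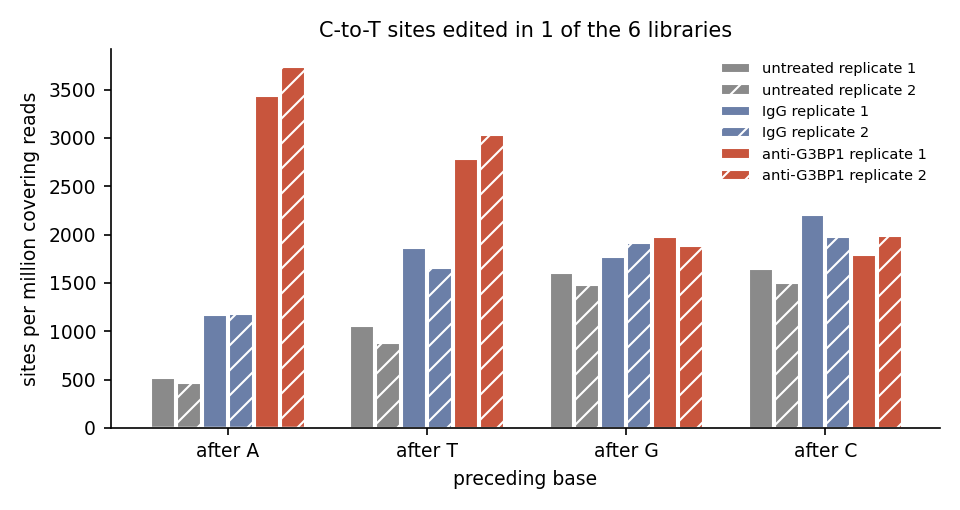
C-to-T sites edited in exactly 1 of the 6 libraries labelled E10.5 embryo, FreshFrozen, per 1000000 reads covering sites of that context (y axis), by the base before the C (x axis). Each bar is 1 library. After A the anti-G3BP1 libraries stood at 3437 and 3732 and the untreated ones at 514 and 463, while after G all 6 lay between 1475 and 1974.

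Most of the sites were seen in 1 library. Of the 40471, 33572 (83.0%) had edited reads in 1 of the 4 antibody libraries, 5627 (13.9%) in 2, 706 in 3 and 77 in all 4, and 489 had none at all. Anti-G3BP1 alone carried the edit at 25798 sites (63.7%), IgG alone at 10272 (25.4%) and both antibodies at 3912 (9.67%). Both anti-G3BP1 libraries and no IgG library were edited at 2063 sites, and the opposite held at 435. These counts are not scaled to depth, which was greater in the anti-G3BP1 libraries. The deepest library, anti-G3BP1 replicate 2, alone carried the edit at 14383 sites, against 9352 for replicate 1. Within a library, 77.6% to 80.8% of the edited sites rested on exactly 2 edited reads and 7.25% to 14.3% on 1. Edited reads at a site were therefore few, with a highest count of 15 and 11 in the IgG and 13 and 31 in the anti-G3BP1 libraries. Of the sites edited in anti-G3BP1 replicate 1, 19.7% were also edited in replicate 2, and 13.9% the other way round. The 2 IgG libraries shared 9.85% and 9.63% of theirs.

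Of the 4 features compared, the base before the C, the gene region, spacing and depth, the first went with the widest difference in gain between the antibodies. An A preceded 43.8% of the sites, against 21.7% of the 7868198 C positions in the 8381 transcripts that hold listed sites. Those C positions span every region at any depth, whereas 74.5% of the sites lay in 3' UTRs, so the contrast is not matched. A G preceded 25.2% against 25.4%, a T 19.2% against 24.2% and a C 11.9% against 28.7%. At the 17701 sites after A, 0.424% and 0.445% of reads were edited with IgG and 1.21% and 1.24% with anti-G3BP1, a ratio of 2.82-fold. At the 7755 sites after T the shares were 0.611% and 0.539% against 0.878% and 0.923% (1.57-fold). After G, 10183 sites had 0.773% and 0.808% against 0.860% and 0.778% (1.04-fold), and after C, 4788 sites had 0.878% and 0.772% against 0.705% and 0.741% (0.876-fold). The groups did not overlap after A and T, overlapped after G, and lay in the opposite order after C.

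**Figure D2:**
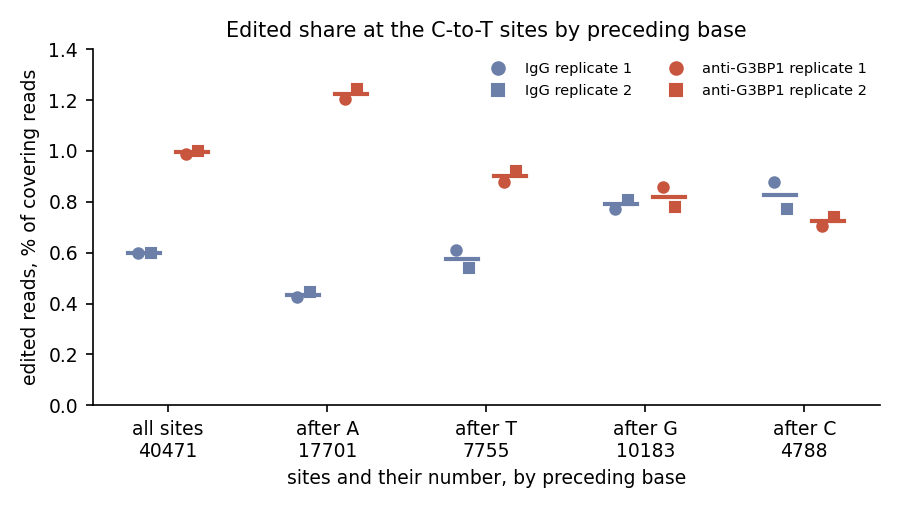
Edited share (y axis, % of covering reads) at all C-to-T sites of the rule and split by the preceding base (x axis, with the number of sites), for the 2 IgG and 2 anti-G3BP1 libraries labelled E10.5 embryo, FreshFrozen. Points are libraries and lines are group means. After A, IgG stood at 0.424% and 0.445% and anti-G3BP1 at 1.21% and 1.24%, whereas after G and C the groups lay near each other.

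Within the context of A the ratio also differed with the following base, which was not tested. At ACT, 6839 sites, 0.405% and 0.426% against 1.30% and 1.34% of reads were edited (3.17-fold), and at ACA, 7084 sites, 0.418% and 0.422% against 1.20% and 1.23% (2.90-fold). At ACC, 2388 sites, the shares were 0.511% and 0.509% against 0.988% and 1.04% (1.99-fold). The 4 triplets with an A before the C had the 4 highest ratios of the 16. The widest loss was at CCG, 458 sites, with 1.03% and 0.680% against 0.737% and 0.707%. These ratios are descriptions of 2 libraries against 2.

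Over the 4 tables, the gain with anti-G3BP1 at sites after A or T exceeded that at sites after C or G by 0.62 on the log2 scale (exact permutation within tables, p = 0.0123; adjusted over 6 tests, 0.0247). In the libraries labelled E10.5 embryo, FreshFrozen, the difference was 1.26, and in the other 3 tables without them it was 0.41 with p = 0.0741 by the same exact test. The call therefore rests in part on the table from which the sites were taken.

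The context followed the libraries that carried the edit. Among sites edited in both anti-G3BP1 libraries and no IgG library, 67.0% followed an A and 16.4% a G. Among those edited in both IgG libraries and no anti-G3BP1 library, 25.1% followed an A and 40.6% a G. Of the 9166 sites edited in untreated libraries only, which lie outside the rule, 16.8% followed an A and 46.3% a G. The 20 bases after the site held 61.1% A or T in the first class, 52.7% in the second and 49.0% in the untreated class. All C positions of the transcripts, in every region and at any depth, had 48.6%. The classes also differed in region, with 86.0%, 71.7% and 62.0% of their sites in 3' UTRs. Neither contrast is matched by region. The letters TGAT, with which the core of the APOBEC1 mooring sequence begins, stood within bases 2 to 12 after the site, on the transcript strand, in 3.17% of the sites, in 3.98% of those edited in both anti-G3BP1 libraries alone, and in 2.73% of all C positions. These shares describe sites that were sorted by their edited reads.

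The 489 sites with no edited read in any of the 6 libraries stood apart in sequence. Of 479 with a full window, 146 (30.5%) held 5 CA units in a row within the 30 bases, on the transcript strand, against 81 of 39224 sites with an edited read (0.207%) and 0 of 2046 sites edited in both anti-G3BP1 libraries and no IgG library. The sites with no edited read add covering reads and no edited read to every share given here. The densest runs of sites show both kinds. In the 3' UTR of Spen, a transcriptional corepressor with RNA recognition motifs, 10 sites lay within 97 bases of chromosome 4 (141467959 to 141468055, - strand), 7 of them after A. Together they had 1 of 928 and 4 of 1040 reads edited with IgG and 4 of 1354 and 18 of 2077 with anti-G3BP1, so that the groups overlapped. In the 3' UTR of Atp8a2, a neuronal phospholipid flippase, 9 sites lay within 87 bases, all after A, with 0 of 234 and 0 of 253 against 4 of 432 and 4 of 665. Of these 9 sites, 6 lay in a CA repeat, and the other 3 lay outside it and carried 2 of the 4 edited reads of anti-G3BP1 replicate 1 and all 4 of replicate 2. The next 3 windows show separate C positions of Spen and a site of Atp8a2 inside the repeat.
Spen 3' UTR, chr4:141467959-141467988, - strand: gacttcctaacaCttattaatttatgaaac
Spen 3' UTR, chr4:141467969-141467998, - strand: acctctccctgaCttcctaacacttattaa
Atp8a2 3' UTR, chr14:59638927-59638956, - strand: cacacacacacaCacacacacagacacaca
The Atp8a2 site shown had no edited read in any library and is 1 of 5 such sites of that run. The run in Rab18, a small GTPase of lipid droplets and the endoplasmic reticulum, held 9 sites within 95 bases, with 0 of 688 and 2 of 626 IgG reads against 9 of 685 and 13 of 936 anti-G3BP1 reads edited, and here the groups did not overlap.

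Neighbouring sites tended to be edited in the same libraries. The median distance to the nearest other site on the same strand was 49 bases, and 17.2% had one within 10 bases, 50.5% within 50 and 67.0% within 100. For the 9209 sites edited in untreated libraries only, the median was 566 bases and 22.7% had a neighbour within 100. That class is smaller, which by itself widens its spacing. Among neighbours in 1 gene that both had edited reads, those 1 to 2 bases apart shared an edited library in 57.5% of 628 pairs, those at 51 to 100 bases in 43.5% of 5476 and those beyond 500 and up to 5000 bases in 36.9% of 3482. Equal numbers of edited reads in each of the 4 libraries were found in 36.2% of pairs at 1 to 2 bases and 19.8% at the widest distance, and close sites can lie on the same reads. At A-to-G sites the shared library fell from 81.4% at 1 to 2 bases to 50.8%. Neighbours share reads, depth and gene, so these shares have no test.

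**Figure D3:**
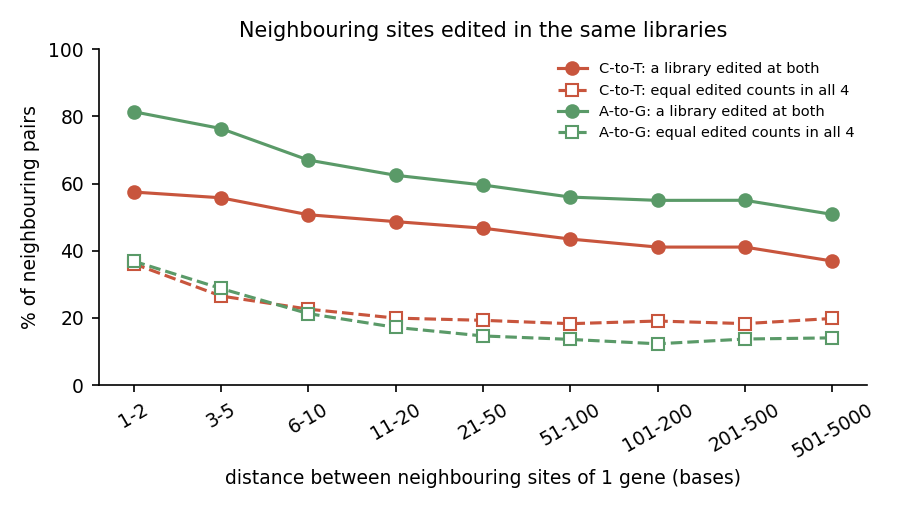
Share of neighbouring pairs of sites in 1 gene (y axis, %) that had edited reads in a common antibody library (filled) or equal numbers of edited reads in each of the 4 (open), by their distance in bases (x axis), for the C-to-T sites and the A-to-G sites of the same rule. Sharing fell from 57.5% to 36.9% for C-to-T and from 81.4% to 50.8% for A-to-G.

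Sites with a neighbour within 100 bases had 0.524% and 0.525% of reads edited with IgG and 0.925% and 0.935% with anti-G3BP1, a 1.77-fold gain. The 13361 sites without one had 0.823% and 0.811% against 1.18% and 1.19%, a 1.45-fold gain. In the source table the gain was thus wider at clustered sites, but over the 4 tables the difference was 0.07 (log2; exact permutation within tables, p = 0.298), it ran from 0.036 without Fixed IgG replicate 1 to 0.11 without Fixed IgG replicate 2, and it was below 0 at 50 or 300 bases. A difference in gain by spacing was not established.

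By depth, the 20337 sites at or above the median summed untreated depth had 0.490% and 0.494% of reads edited with IgG and 0.816% and 0.800% with anti-G3BP1, and the 20134 shallower sites had 0.784% and 0.782% against 1.32% and 1.36%. The level fell with depth for either antibody, from 0.967% and 0.954% (IgG) and 1.61% and 1.65% (anti-G3BP1) in the shallowest of 4 depth classes to 0.494% and 0.472% and 0.799% and 0.740% in the deepest. Within a library, 77.6% to 80.8% of the edited sites held exactly 2 edited reads, and an equal count is a lower share of a deeper site. The fall is therefore not read as a property of editing, and its cause was not tested. The gain was 1.64-fold in the deep and 1.71-fold in the shallow sites, and over the 4 tables it differed by 0.02 (log2; exact permutation within tables, p = 0.892). The log2 gain of the 4 classes ran from 0.67 to 0.80. With reads thinned at each site to the shallowest of the 4 antibody libraries, the overall log2 gain was 0.75. The thinning kept all 40471 sites, of which 14383 were edited only in the deepest antibody library. It therefore cannot remove an effect of depth on which sites were listed.

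The annotation placed 30137 of the sites (74.5%) in 3' UTRs, 8310 (20.5%) in coding sequence, 1753 (4.33%) in non-coding exons, 228 in 5' UTRs and 43 outside exons. The first 2 shares were much as for the A-to-G sites (74.2% and 20.5%) and unlike those of the sites edited in untreated libraries only (61.8% and 31.8%). In 3' UTRs 0.552% and 0.551% of reads were edited with IgG and 0.988% and 1.0% with anti-G3BP1 (1.81-fold), and in coding sequence 0.801% and 0.770% against 1.04% and 1.03% (1.32-fold). The groups did not overlap in either region. Over the 4 tables the gain in 3' UTRs exceeded that in coding sequence by 0.17 (log2; exact permutation within tables, p = 0.218), by 0.088 to 0.25 with 1 library left out (lowest without E12.5 brain anti-G3BP1 replicate 1, highest without replicate 2), and among sites after A alone by 0.056, so that a difference by region was not established. Of 8261 coding sites with a codon, the C-to-T change would be missense at 4356 (52.7%), synonymous at 3245 (39.3%) and a stop codon at 660 (7.99%). The gain was 1.22-fold, 1.46-fold and 1.36-fold at these, with shares at stop positions of 0.770% and 0.750% against 0.982% and 1.08%.

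The other 3 editing tables hold libraries that the rule did not use, but they cover only sites that were listed there again. The Fixed embryo listed 1200 of the sites (2.97% of them and 1.70% of its own C-to-T sites), E12.5 brain 5299 (13.1% and 3.07%) and E16.5 brain 6174 (15.3% and 2.57%), and 996, 2874 and 6123 of these had 10 or more reads in every library there. Of these, 22 (2.21%), 2076 (72.2%) and 1391 (22.7%) had no edited read in any library there. Edited reads in the same libraries may thus have entered the listing, and to an unlike degree. The shares describe the sites listed there and not the sites of the rule as a whole. In the Fixed embryo 0.275% and 0.324% of IgG reads and 0.400% and 0.409% of anti-G3BP1 reads were edited. The E12.5 brain libraries had 0.173% and 0.261% against 0.411% and 0.301%, and those of E16.5 brain 0.231% and 0.244% against 0.431% and 0.406%. Both anti-G3BP1 libraries lay above both IgG libraries in each table. The mean gain was 0.66 on the log2 scale, or 1.58-fold (exact two-sided permutation within 3 tables, p = 0.00926, the smallest value 216 arrangements allow; adjusted over 6 tests, 0.0247). In the Fixed embryo the untreated libraries had 0.216% and 0.392% of reads edited at these sites, a range that held both IgG values. The C-to-T sites that the rule left out for untreated edited reads gained as well. From summed reads their gain was 1.48-fold (Fixed), 2.0-fold (E12.5) and 1.20-fold (E16.5), against 1.35-fold, 1.64-fold and 1.76-fold. From the mean of the sites' shares their log2 gain was 0.085, 0.037 and 0.12, against 0.49, 0.69 and 0.865. By summed reads a gain was thus not particular to the sites of the rule.

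The gain in the other tables was again highest after A. It was 1.73-fold there (exact permutation p = 0.00926; adjusted over 12 tests, 0.0185), 1.15-fold after T (p = 0.444, exact), 1.14-fold after C (p = 0.556, exact) and 1.27-fold after G (p = 0.0185, exact; adjusted 0.0278). Sites that had been edited in both anti-G3BP1 libraries and no IgG library gained 1.80-fold in the other tables (adjusted p = 0.0278, exact permutation). At these sites 0.321% and 0.332% against 0.365% and 0.326% of reads were edited in the Fixed embryo, where the groups overlapped, and 0.302% and 0.317% against 0.643% and 0.641% in E16.5 brain, where they did not. The E12.5 brain values were 0.129% and 0.327% against 0.745% and 0.454%, also apart. Sites edited in 1 anti-G3BP1 library only gained 1.52-fold, and sites edited in 1 IgG library only gained 1.58-fold (adjusted p = 0.0185 for either, exact permutation). The last 2 classes, opposite in the source table, differed in the other tables by -0.06 on the log2 scale (p = 0.676, exact permutation). Which library carried the edit at a site seen once was thus not followed by a detectable difference elsewhere.

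**Figure D4:**
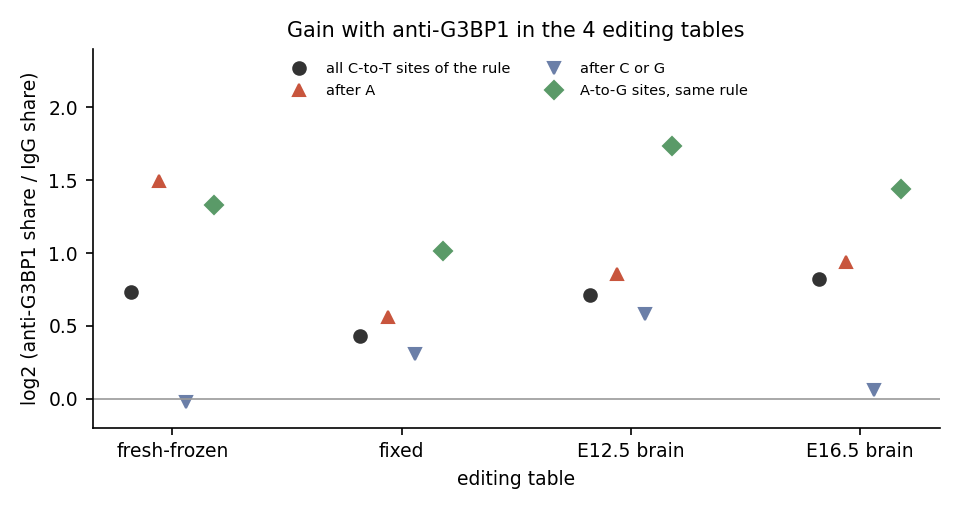
Log2 ratio of the mean anti-G3BP1 share to the mean IgG share (y axis) in the 4 editing tables (x axis), for all C-to-T sites of the rule covered there, those after A, those after C or G, and the A-to-G sites of the same rule. The C-to-T sites stood between 0.43 and 0.82 and the A-to-G sites between 1.01 and 1.74.

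The sites fell in 7959 genes, with a median of 4 sites a gene, 1541 genes with 1 site and 174 with 20 or more. Zfhx3, a homeodomain transcription factor, had most, with 74, followed by 9330162G02Rik (66), the transcription factor Zbtb20 (64), Ank3, the ankyrin of the axon initial segment (62), the histone methyltransferase Kmt2a and the receptor phosphatase Ptprz1 (57 each), the imprinted antisense RNA Kcnq1ot1 (55), Ank2, the axonal ankyrin (49), the nuclear RNA Malat1 (47), and the Wnt scaffold Apc, the chromatin remodeller Bptf and the transcription factor Pou2f2 (45 each). The number of sites per gene rose with the number of A-to-G sites (Spearman rho 0.64 across 7959 genes) and with the mean TPM (0.44 across 7762), both without a test because genes share libraries and depth. Overlapping genes count a shared site in each.

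Of the 6167 genes with 50 or more covering reads in every antibody library, 3 had a higher edited share with anti-G3BP1 at an adjusted p under 0.05 (0.0486% of those tested) and 0 a lower one (quasi-binomial model, Benjamini-Hochberg). At an unadjusted p under 0.05 there were 711, of which 112 were lower. edgeR called 15 and limma 0, all 15 higher, and 27 passed where 200 reads per gene were required in place of 50. With 20 or more reads at each site in every library, with a replicate block, or against the median change, 0 genes were called, with 601, 672 and 438 at an unadjusted p under 0.05. The median gene had 11 edited reads over the 4 libraries, and on data simulated with counting error alone the model called 42 of 100 genes raised 4-fold. In 1963 genes (31.8%) both anti-G3BP1 libraries lay above both IgG libraries, and in 437 (7.09%) both lay below.

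In Nedd4, over 25 sites, 7 of 2329 and 4 of 2302 covering reads were edited with IgG, and 50 of 2717 and 59 of 3602 with anti-G3BP1. The shares were 0.237% ± 0.0897 (SD, n = 2) and 1.74% ± 0.143 (SD, n = 2), and the groups lay far apart. The change was 2.82 ± 0.60 (log2 odds, SE; adjusted p = 0.0113, quasi-binomial model). The 12 and 31 edited anti-G3BP1 reads at the site shown above are part of these sums. Its mRNA level was 440 and 445 TPM in the IgG, 470 and 467 in the anti-G3BP1 and 647 and 629 in the untreated libraries. Its 16 A-to-G sites had 0.345% and 0.858% of reads edited against 2.31% and 1.19%, again without overlap.

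Map2, which binds microtubules in dendrites, had 6 of 3754 and 7 of 3272 reads edited over 43 sites with IgG, and 40 of 3128 and 44 of 4230 with anti-G3BP1. The shares were 0.187% ± 0.0383 and 1.16% ± 0.169 (SD, n = 2 each), a change of 2.59 ± 0.57 (log2 odds, SE; adjusted p = 0.0263, quasi-binomial model). Its mRNA stood at 342 and 321 TPM in the IgG libraries, against 252 and 265 for anti-G3BP1. The edited share was thus higher where the mRNA level was lower. Septin11, a filament-forming GTPase, had 0 of 1365 and 0 of 1475 edited reads over 16 sites with IgG and 22 of 1576 and 31 of 2493 with anti-G3BP1, which is at least 12.3-fold higher against the limit of 0.106% that 3 counts over both IgG libraries give (adjusted p = 0.0288, quasi-binomial model). Its 11 A-to-G sites had 0.735% and 0.481% against 3.66% and 4.06%.

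In the other tables few of these sites were covered, and in the Fixed embryo 1 site each of Nedd4 and Map2 had 2 edited reads with IgG and 0 with anti-G3BP1. In E16.5 brain, 6 sites of Map2 had 0 of 1261 and 0 of 837 edited reads with IgG against 2 of 851 and 4 of 1258, and 4 sites of Septin11 had 1 of 1421 and 0 of 1005 against 3 of 814 and 5 of 1355. At 5 sites of Nedd4 the counts were 4 of 959 and 2 of 729 against 6 of 698 and 6 of 1099. In E12.5 brain 9 sites of Nedd4 had 0 of 287 and 3 of 681 against 2 of 443 and 2 of 469, and 3 sites of Septin11 had 0 of 60 and 4 of 203 against 0 of 238 and 2 of 242. The order of the source table was seen in E16.5 brain for all 3 genes and was not seen in E12.5 brain, where the groups overlapped. All 3 calls were lost when any of the 4 antibody libraries was left out, with 0 genes called each time, while the log2 odds change stayed between 2.5 and 3.25 for Nedd4, 2.39 and 2.80 for Map2 and 6.17 and 6.35 for Septin11.

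Next by p-value came 5 genes that missed the threshold, none of them with overlapping groups. Apc had 0.426% and 0.265% of reads edited with IgG and 1.31% and 1.46% with anti-G3BP1 (adjusted p = 0.0592, quasi-binomial model). Ssr3, a subunit of the translocon-associated complex of the endoplasmic reticulum, had 2 of 962 and 0 of 1098 edited reads against 24 of 1230 and 28 of 1790 (adjusted p = 0.142, same model). Both had overlapping groups in E16.5 brain, with 0.261% and 0% against 0% and 1.07% for Apc and 0.342% and 0% against 0.118% and 0.360% for Ssr3. In the Fixed embryo and in E12.5 brain the edited reads at the Ssr3 sites, 2 and 1, all came from IgG replicate 2. Dner, a Notch-like neuronal membrane protein, had 0.307% and 0.356% against 1.27% and 1.26%. It had the same order in E16.5 brain, with 0.241% and 0.289% against 0.657% and 0.983% over 11 sites. Ppp3cb, a catalytic subunit of calcineurin, had 0.109% and 0.297% against 1.67% and 1.16%, and in E16.5 brain 0.120% and 0.0611% against 0.574% and 0.415% over 9 sites. Frrs1l, an AMPA receptor assembly factor, had 0 of 609 and 0 of 556 against 8 of 498 and 21 of 826, which is at least 8.51-fold higher. For Frrs1l 4 sites in E16.5 brain gave the opposite order, with 5 of 505 and 3 of 496 against 0 of 346 and 2 of 469.

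**Figure D5:**
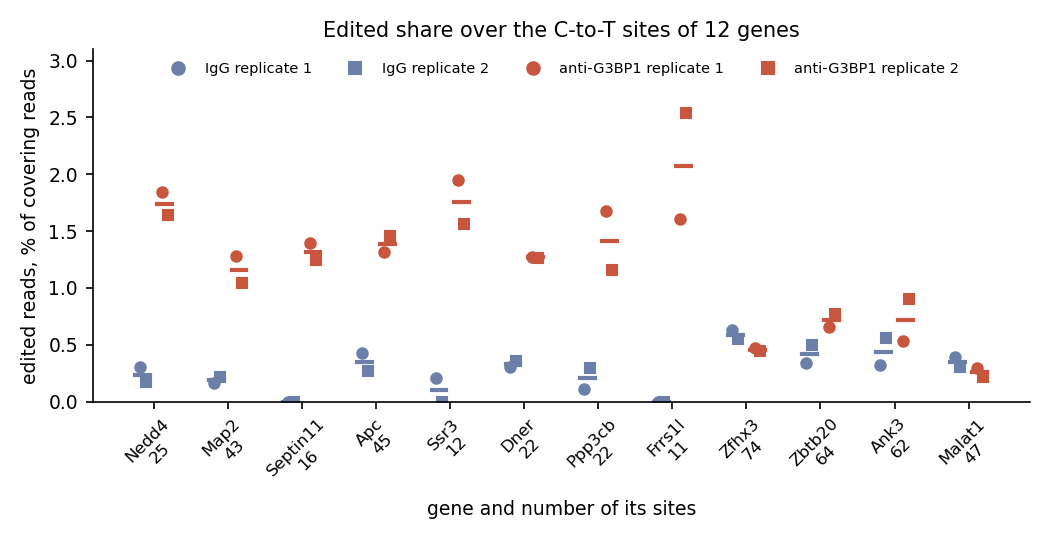
Edited share over the C-to-T sites of 12 genes (y axis, % of covering reads), with the number of sites under each gene (x axis), in the 2 IgG and 2 anti-G3BP1 libraries. Points are libraries and lines are group means. The 3 called genes Nedd4, Map2 and Septin11 and the next 5 show groups apart, while Zfhx3 and Malat1 have anti-G3BP1 below IgG.

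Among the 12 genes with most sites, Zfhx3 and Malat1 went the other way. Zfhx3 had 0.629% and 0.548% of reads edited with IgG and 0.469% and 0.443% with anti-G3BP1, and Malat1 had 0.391% and 0.301% against 0.294% and 0.218%. Both anti-G3BP1 libraries lay below both IgG libraries in these genes, and neither passed the test. In Zfhx3 24 of 74 sites and in Malat1 9 of 47 followed an A, against 43.8% of all sites, and the A-to-G sites of Zfhx3 had 0.363% and 0.251% against 0.762% and 0.629%, the opposite order. Zbtb20 had 0.340% and 0.494% against 0.659% and 0.770%, and Bptf 0.313% and 0.600% against 1.73% and 1.17%, without overlap. Ank3, Kmt2a, Kcnq1ot1 and Pou2f2 had overlapping groups.

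The gene groups below were listed with earlier results of these data known, and their counts are set against 31.8% of all tested genes with groups apart and higher, 7.09% apart and lower, and a median log2 odds change of 0.67. A fitted change depends on the added reads where a group has no edited read, as in 1337 of the 6167 genes. With such genes at their bound, and left out where both groups were under the limit, the median over all genes was 0.46. Of the 23 tested genes of the neuronal cytoskeleton, 1 was called (Map2), 8 were apart and higher, 3 apart and lower, and the median was 1.06, or 0.50 with bounds. Map1b, a microtubule-associated protein of growing axons, had 0.381% and 0.687% against 0.503% and 1.13%, with overlap. Dclk1, a doublecortin-like kinase, had 0.461% and 0.539% against 1.71% and 1.18%, without overlap.

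No gene of the other groups was called. Among 20 axon guidance genes, 9 were apart and higher and 0 apart and lower (median 0.83). Dcc, the netrin receptor, had 0.667% and 0.518% against 0.813% and 0.930%, while the semaphorin co-receptor Nrp2 had 1.35% and 0.793% against 0.988% and 0.826%, with overlap. Among 20 synaptic genes, 8 were apart and higher and 1 apart and lower (median 0.70). Syt1, the calcium sensor of vesicle release, had 0.555% and 0.264% against 0.670% and 0.633%, and the scaffold Shank1 had 0.598% and 0.742% against 0.596% and 0.693%.

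Proteins of RNA granules were near the background: 5 of 18 tested genes were apart and higher, 1 apart and lower, and the median was 0.56. G3bp1 mRNA itself, with 9 sites, had 3 of 653 and 4 of 713 reads edited with IgG against 6 of 816 and 12 of 1377 with anti-G3BP1. G3bp2 had 0 of 526 and 6 of 613 against 8 of 783 and 14 of 961, and Caprin1 1 of 532 and 6 of 453 against 10 of 548 and 10 of 837. Of these 3 only Caprin1 had overlapping groups, and none passed the test. Ddx3x, an RNA helicase, had 0.715% and 0.577% against 1.96% and 1.73%.

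Among 12 translation factor genes 6 were apart and higher and 1 lower (median 0.62, or 0.61 with bounds). Eif4g3, a scaffold of the cap-binding complex, had 0.514% and 0.534% against 1.31% and 1.13%. Of 24 ribosomal protein genes 4 were apart and higher and 2 lower. Their median was 0.46, and -0.08 with bounds, since 10 of them had a group without edited reads. These genes have many processed copies in the genome, and reads may be split among them. Of 11 chaperone genes 5 were apart and higher and 1 lower (median 1.28), with Hsph1, a chaperone of the heat shock family, at 0.276% and 0.223% against 1.28% and 1.12%.

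The 7 nuclear long non-coding RNAs had 2 genes apart and higher and 2 apart and lower (median 0.43). Meg3, an imprinted RNA, had 0.659% and 0.879% against 0.601% and 0.474%, lower in both libraries. Over the sites of this group 27.5% followed an A, against 43.8% for all genes, and 0.430% of IgG reads and 0.485% of anti-G3BP1 reads were edited. Of 8 mRNAs known as intestinal targets of Apobec1, 4 had sites, and 2 were apart and higher (median 1.63). Tmem30a, a flippase subunit, had 0 of 589 and 3 of 443 against 6 of 459 and 17 of 704. Serinc1 had 0.258% and 0.303% against 1.85% and 0.216%, with overlap. On the mitochondrial chromosome 3 genes held 8 sites, 6 of them in mt-Nd5, a subunit of complex I, with 0 of 857 and 2 of 392 reads against 10 of 511 and 13 of 752 (median of the 3 genes 2.62, or 1.74 with bounds).

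At the level of single sites, 1 of the 40471 passed the test, and so did 28 of all 104878 sites of the table, all of them higher, 18 of these among the A-to-G sites of the same rule. At an unadjusted p under 0.05 there were 783 sites (1.94%, against 3484 or 3.32% of all sites of the table), 333 higher and 450 lower, and 89.2% of the higher but 30.7% of the lower ones followed an A. Both anti-G3BP1 libraries lay above both IgG libraries at 2222 sites (5.49%, against 8.07% of all sites of the table), and below at 547 (1.35%, against 1.24%). No site passed with lower editing.

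The gains of the 2 kinds of edit were also compared across genes. In 4866 genes with 50 or more reads at both kinds of site, the median log2 change was 0.67 at C-to-T and 1.27 at A-to-G sites, with 70.0% and 81.1% of genes above 0 (0.5 edited reads added per antibody). The Spearman correlation of the changes was 0.07 across these genes, which share libraries and are not independent replicates. The median gene had 11 edited C-to-T reads over the 4 antibody libraries, and counting error of that size lowers such a correlation. Whether the 2 gains are unrelated therefore cannot be told from it.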

How the data were processed

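The authors deposited, per the file headers, 4 editing tables with 2 counts per site and library, covering reads and edited reads, and 4 tables of TPM, which were used as deposited. The builds mm10 and GRCm38 and the tools GATK 4.5.0.0, HISAT2 2.2.1, Subread, featureCounts 2.0.1, BWA 0.7.17 and Picard 3.1.1 stand in the submitters' processing notes. What each tool did, and how a position came to be listed, is not given in the sources used. Edited counts of 1 were rarer than counts of 2 in each antibody library, and what sets this was not tested. The members of the rule, the gene lists and the tests were chosen with earlier results of these data known.

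Repeated lines were removed, and sites were annotated with GENCODE M21 (GRCm38). The base of all 150280 sites with a transcript base was the same as in the transcript, and 13002 of 13413 gene identifiers had the same version. Edited and covering reads were summed over sites per library, and gain is the log2 ratio of the mean anti-G3BP1 to the mean IgG share. Gains were compared by permuting antibody labels within each table (exact, two-sided), with equal weight per table. Genes with 50 or more reads in each antibody library, and all 104878 sites, went through a quasi-binomial logistic fit after adding 0.25 edited and 0.25 unedited reads. The dispersion, moderated by the squeezeVar function in limma 3.58.1 (R 4.3.3), was kept at 1 or more, and p-values were adjusted by Benjamini-Hochberg. Alternatives were edgeR 4.0.16 on edited reads with covering reads as offset, limma on the empirical logit, other read minimums, a replicate block, and leaving out libraries. Tested on simulated data for the genes over these sites (6167 genes), the model called 42 of 100 genes raised 4-fold, 3 of 100 lowered to 0.25-fold and 4 of 5967 unchanged ones. The simulated libraries varied by counting error alone. Unchanged genes were set to a fold of 1, while the real genes had a median log2 odds change of 0.67. The simulation therefore does not give the power or error rate on the real libraries.

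Named genes were the called ones, the 12 with most sites, the 8 with the smallest p, the 3 with most sites of each list, and G3bp1, G3bp2 and Caprin1. Named sites were the called ones, the 10 with the highest mean share, the 6 with most edited anti-G3BP1 reads, and the 3 densest runs. Of these the text prints a selection. One site is not reported here.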

Additional observations from a re-analysis of the deposited data

Results flagged for a closer look

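The untreated libraries of the Fixed embryo, which entered no test, had a mean of 0.304% of reads edited at the 996 sites of the rule covered there. By the rule, these positions had no edited read in the untreated libraries by which they were chosen. Of the 996, all but 22 (2.21%) had an edited read in some library of the Fixed embryo. The share therefore describes sites listed there with edited reads, and not the sites of the rule as a whole. After A the untreated values were 0.114% and 0.248%, below both IgG values of 0.259% and 0.343%, and after G they were 0.343% and 0.641%, above the IgG values of 0.302% and 0.289%. The cause was not tested.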

How the results depend on the processing

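The overall log2 gain stayed between 0.49 (reads thinned and values of 1 set to 0) and 1.49 (sites after A) in 17 of 18 alternatives, and was -0.025 at sites after C or G. With a replicate block it was 0.73, and leaving out a library gave 0.72 to 0.74. The gain in the other 3 tables was 0.77, 0.63 and 0.57 without the Fixed, E12.5 and E16.5 table, each p = 0.0556, the smallest exact permutation p that 2 tables allow. The gap to A-to-G sites was -0.60 in the source table alone, and the gap by preceding base 1.26 there and 0.41 without it, where p was 0.333 and 0.0741 (exact permutation). The gap by spacing was -0.0037 without the source table, -0.024 at 50 and -0.010 at 300 bases. Leaving out 1 library at a time moved the gap by region between 0.088 and 0.25 (exact permutation p down to 0.0525, without Fixed anti-G3BP1 replicate 2) and that by spacing between 0.036 and 0.11. The gap by depth was -0.062 in the source table alone and -0.0022 after A, and leaving out 1 library at a time moved it between -0.065 (E12.5 brain anti-G3BP1 replicate 2 left out) and 0.16 (-0.007 without Fixed IgG replicate 1 and -0.01 without Fixed anti-G3BP1 replicate 1).

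The 3 genes called became 0 with the replicate block, against the median change, at 20 reads in every library, with limma or after A only, 1 at a summed untreated depth of 80, 27 at 200 reads per gene and 15 with edgeR. Leaving out a library gave 0 to 0 genes, and 97 to 414 at an unadjusted p under 0.05, with a lone library assumed to vary like the others. The 3 were among the 27 and among the 15. The adjusted p of Nedd4 ran from 8.12e-06 to 0.817, of Map2 from 0.000378 to 0.817 and of Septin11 from 6.47e-05 to 0.817 over these settings. Called sites of the rule numbered 2 with the replicate block, 2 (both lower) against the median change, 4 with edgeR, 0 with limma and 0 to 0 without 1 library. Over all 104878 sites of the table the 28 calls became 340 with edgeR, 67 with the replicate block, 5 against the median change, 0 with limma, 20 and 21 without an IgG library and 0 without either anti-G3BP1 library. The deviations of same-numbered libraries had r = 0.0056 over 6167 genes. With a median of 11 edited reads per gene, counting error alone can bring r near 0. Whether the numbers pair the libraries therefore cannot be told from it. Sites edited in 50% of reads or more in an antibody library labelled E10.5 embryo, FreshFrozen, numbered 0, so that alternative changed nothing. The Eef1a2 site passed that share in libraries of other tables and was not left out. Alternatives by context, by 1 allele, with values of 1 set to 0 and by leaving out a library of a table were chosen after seeing the data.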
